A study of Mus musculus with 12 samples.

Results

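The smooth muscle contractile genes described here are 9 genes chosen by symbol: Acta2, Tagln, Myh11, Cnn1, Myl9, Lmod1, Tpm2, Mylk and Smtn. All 9 were listed among the 27825 genes measured, and all 9 were among the 22238 genes tested. They were followed by bulk RNA-seq in fluorescent cells sorted as endothelium, the lining of blood and lymph vessels, from 2 tissues and on 2 diets. Every mouse was a male ROSA26-eYFP+/+ Cdh5-CreERT2+ animal, in which a tamoxifen-inducible Cre recombinase driven by the endothelial gene Cdh5 turns on a yellow fluorescent reporter. All groups received tamoxifen food at 6 weeks of age for 2 weeks. At 8 weeks the diets began and lasted 12 to 13 weeks: normal chow, in which 5.8% was fat, or a high fat diet, in which 60% was. The cells came from mesentery, the sheet of tissue through which vessels reach the gut, or from epididymal fat pads. The 4 groups were mesentery on chow, mesentery on high fat diet, epididymal fat on chow and epididymal fat on high fat diet, with 3 libraries (A, B and C) in each and the tissue of 6 mice pooled in a library. The labels speak of 2 independent repeats of the experiment but name 3 libraries a group, so p-values measure the spread between these libraries, part of which may be technical.

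Smooth muscle cells wrap arteries, arterioles and veins, and they shorten when myosin pulls on actin filaments. Calcium and calmodulin switch on myosin light chain kinase, which phosphorylates the myosin regulatory light chain, while tropomyosin and calponin sit along the actin filament and tune its contact with myosin. Pericytes, the mural cells of capillaries and venules, carry part of the same gene set, and endothelial cells move with non-muscle actin and myosin made by other genes. The contractile genes are textbook targets of serum response factor, which binds a DNA element called the CArG box, and of its partners myocardin and the myocardin-related factors.

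Promoters of Acta2 and Myl9 are shown because these were the most abundant members per base of transcript in epididymal fat, and because they moved together between libraries. The 250 bases before the start of each gene come from RefSeq on build GRCm38.p6, read 5′ to 3′ on the strand of the gene. Capitals mark a CArG box, that is CC and GG around a core of A and T bases, or a CArG-like element in which exactly 1 base of that core is not A or T.
Acta2, chr19:34255374-34255623, minus strand: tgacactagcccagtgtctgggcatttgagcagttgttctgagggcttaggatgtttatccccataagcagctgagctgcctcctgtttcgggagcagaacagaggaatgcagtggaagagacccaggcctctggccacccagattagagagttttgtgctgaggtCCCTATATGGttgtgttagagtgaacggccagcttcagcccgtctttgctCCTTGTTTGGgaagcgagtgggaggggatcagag
Myl9, chr2:156775214-156775463, plus strand: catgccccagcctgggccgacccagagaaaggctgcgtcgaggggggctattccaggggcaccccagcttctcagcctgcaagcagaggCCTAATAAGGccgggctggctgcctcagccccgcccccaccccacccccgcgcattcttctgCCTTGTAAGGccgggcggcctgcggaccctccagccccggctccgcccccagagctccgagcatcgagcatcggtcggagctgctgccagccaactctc
In the Acta2 window the letters CCCTATATGG lay 84 to 75 bases and CCTTGTTTGG 34 to 25 bases before the start, both CArG-like. In the Myl9 window the CArG box CCTAATAAGG lay 161 to 152 bases and the CArG-like CCTTGTAAGG 99 to 90 bases before the start. The search covered both strands, since the reverse complement of either pattern has the same form, and no sequence counts as both kinds. A promoter entry was matched for 7 of the 9 genes. A CArG box was found in 1 of the 7 windows, against 1.47% of 32851 promoter windows of the same length, and a CArG-like element in 2 of the 7, against 7.24%. The windows of Cnn1, Lmod1, Mylk, Smtn and Tpm2 held neither; Tagln and Myh11 were not matched. A match is a description of these letters and shows no binding.

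Library totals ran from 8348897 to 25397963 reads on listed genes. Values below are normalized counts, reads divided by a size factor for each library, and 3 reads correspond to between 2.12 and 4.22 of them. Mitochondrial reads made up 20.6% of mesentery chow library A and 2.50% to 11.5% of the others. Scaled to cpm (reads relative to the library total), olfactory and vomeronasal receptor genes, which these cells are not known for using, took 1934 and 2072 in the epididymal libraries numbered 87 and 88, 103 to 186 in the other epididymal libraries and 250 to 3073 in mesentery. The descriptions give each library a number: chow A, B and C carry 50, 51 and 87, and high fat A, B and C carry 88, 52 and 53. What the numbers stand for is not given in the sources used here, so differences within the libraries numbered 50 to 53 and within those numbered 87 and 88 are also reported. Cdh5, which drives the Cre recombinase, averaged 2835 to 3842 normalized counts in the 4 groups and did not pass the test in any comparison.

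Acta2, smooth muscle alpha actin and the filament itself, read 811, 233 and 97.1 normalized counts in mesentery chow libraries A, B and C, and 524, 342 and 1302 in mesentery high fat libraries. In epididymal fat it read 12795, 8252 and 3700 on chow and 2016, 4783 and 4095 on high fat diet. Every epididymal library lay above every mesentery library, while the diets overlapped within each tissue. Lmod1, leiomodin 1, which nucleates actin filaments in smooth muscle, read 18.2, 3.58 and 0 in mesentery on chow and 20.6, 0 and 23.7 on high fat diet, from at most 24 reads in a library. It read 76.0, 87.7 and 56.2 in epididymal fat on chow and 22.5, 65.2 and 41.8 on high fat diet. The 0 values, in mesentery chow C and mesentery high fat B, allow up to 4.22 and 4.16 normalized counts. On high fat diet its tissues overlapped, since mesentery C (23.7) exceeded epididymal A (22.5).

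Tpm2, beta tropomyosin, which winds along the actin filament, read 254, 149 and 152 in mesentery on chow and 476, 79.0 and 485 on high fat diet, against 2404, 1519 and 873 in epididymal fat on chow and 1026, 1534 and 1331 on high fat diet. Its tissues did not overlap on either diet. Cnn1, calponin 1, an actin-binding brake on myosin, read 83.1, 38.5 and 36.6 in mesentery on chow and 4.68, 43.0 and 108 on high fat diet. In epididymal fat it read 443, 283 and 267 on chow and 101, 273 and 162 on high fat diet. Only on chow were its tissues apart. Tagln, transgelin or SM22, another actin-binding protein of smooth muscle, was low throughout: 11.4, 5.38 and 39.4 in mesentery on chow, 11.2, 1.39 and 10.9 on high fat diet, 36.0, 40.8 and 53.1 in epididymal fat on chow, and 31.5, 33.9 and 41.1 on high fat diet. In the GENCODE annotation of build GRCm38, 67.9% of its exon bases overlap other genes, 1241 of them the antisense gene Gm48529. Whether strand was used in counting is not given in the sources used here, so reads of Tagln and of its neighbours cannot be told apart and its values are uncertain.

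Myh11, the heavy chain of smooth muscle myosin and its motor, read 70.6, 27.8 and 28.2 in mesentery on chow and 65.5, 31.9 and 173 on high fat diet, against 995, 559 and 432 in epididymal fat on chow and 323, 569 and 509 on high fat diet. Myl9, the regulatory light chain that the kinase phosphorylates, read 972, 692 and 472 in mesentery on chow and 1408, 823 and 1517 on high fat diet. In epididymal fat Myl9 read 16996, 9737 and 6130 on chow and 2850, 5744 and 4878 on high fat diet. Both genes separated the tissues on each diet, and Myl9 alone of the 9 also separated the diets in epididymal fat, where its lowest chow library stood above its highest high fat library. Mylk, the kinase, read 270, 233 and 192 in mesentery on chow and 393, 207 and 252 on high fat diet. In epididymal fat Mylk read 1552, 1328 and 975 on chow and 644, 1084 and 752 on high fat diet. Its tissues did not overlap. Smtn, smoothelin, a protein of contractile smooth muscle stress fibres, read 1426, 1694 and 1004 in mesentery on chow, 1452, 1252 and 990 on high fat diet, 2154, 1611 and 1169 in epididymal fat on chow, and 829, 1280 and 1120 on high fat diet. All 4 groups of Smtn overlapped. Of the exon bases of Smtn 16.3% overlap other genes, chiefly Gm11946 on the opposite strand, and of Mylk 6.85%, chiefly E130310I04Rik on the opposite strand; the other 6 share none.

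**Figure D1:**
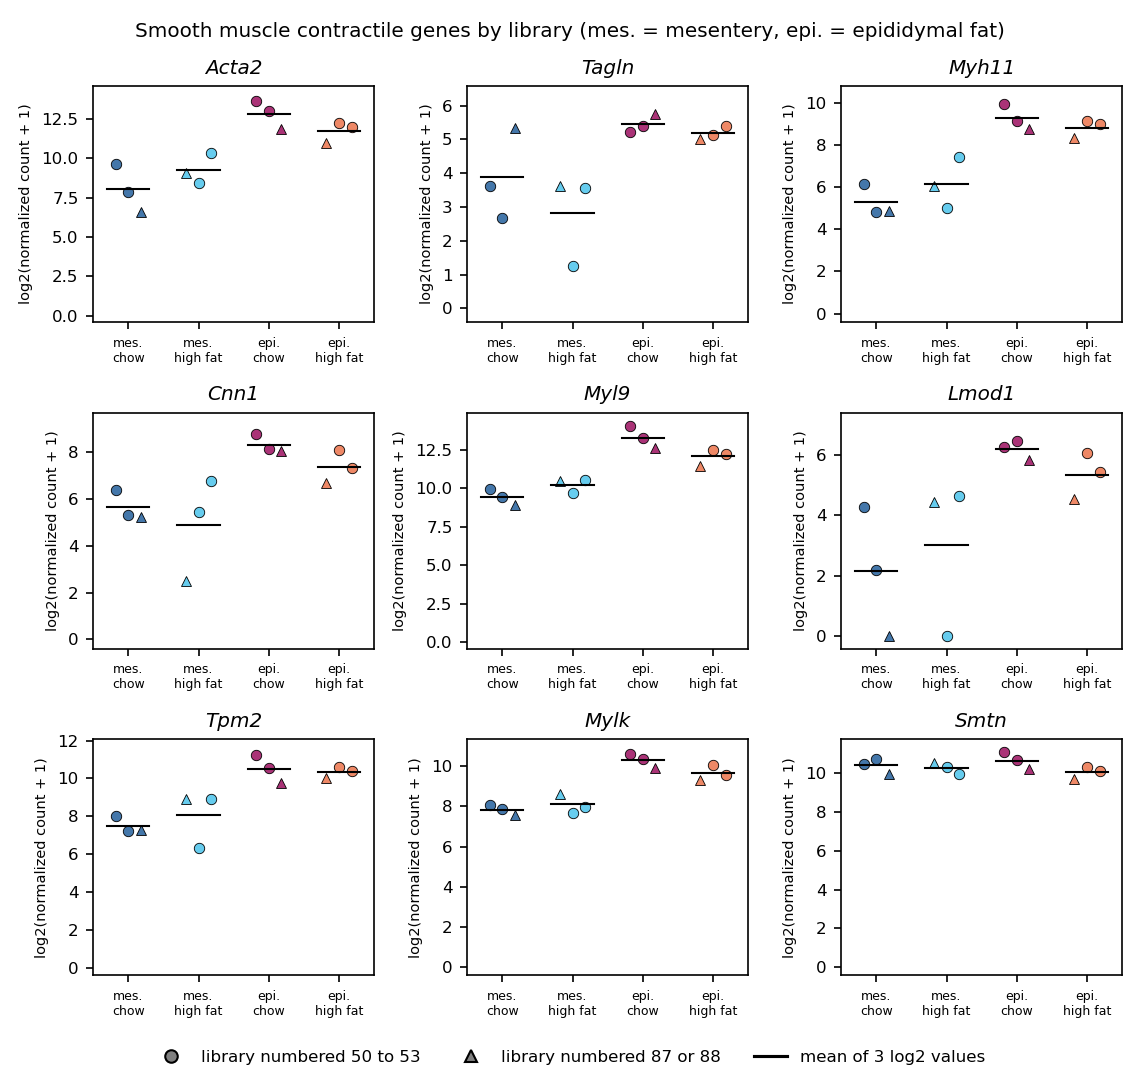
Each panel shows 1 of the 9 genes, with log2(normalized count + 1) on the vertical axis and the 4 groups of 3 libraries along the horizontal axis; points are libraries, round for numbers 50 to 53 and triangular for 87 or 88, and bars are the mean of 3 log2 values. Acta2, Myh11, Myl9, Tpm2 and Mylk lie higher in every epididymal library than in every mesentery library, whereas the Smtn groups overlap.

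Divided by exon length, levels can be set side by side between genes. In epididymal fat on chow Myl9 averaged 9427 ± 4763 normalized counts per kb (SD, n = 3) and Acta2 3756 ± 2071, followed by Tpm2 at 550 ± 264, Smtn at 375 ± 113, Cnn1 at 121 ± 36 and Mylk at 114 ± 26. Myh11 averaged 87.1 ± 38.8 per kb, Tagln 21.8 ± 4.4 and Lmod1 18.6 ± 4.0. The place of Tagln is uncertain, since 67.9% of the exon bases it was divided by overlap other genes. Myl9 and Acta2, Tpm2 and Smtn, Cnn1, Mylk and Myh11, and Tagln and Lmod1 were neighbours whose libraries overlapped. In mesentery on chow the order began with Myl9 at 613 ± 216 per kb, Smtn at 314 ± 79 and Acta2 at 173 ± 173, and ended with Lmod1 at 1.84 ± 2.44. There the libraries of Smtn and Acta2 overlapped, as did those of Myh11 and Lmod1. For Acta2, Myh11, Myl9, Lmod1, Tpm2 and Mylk the order of group means was epididymal chow, epididymal high fat, mesentery high fat and mesentery chow, from high to low. The libraries of the 2 diets overlapped within each tissue for these genes except for Myl9 in epididymal fat, and those of epididymal and mesentery high fat groups overlapped for Lmod1. Exon lengths came from the GRCm38 annotation and not from the one the counts were made with.

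The reads on the 9 genes were also divided differently among them in the 2 tissues. Smtn held 20.4% to 55.1% of these reads in mesentery and 5.75% to 10.6% in epididymal fat. Acta2 held 4.81% to 26.8% in mesentery and 25.7% to 35.2% in epididymal fat, and Myl9 22.5% to 32.3% and 36.3% to 45.4%. Acta2, Myl9 and Smtn together thus held most of the reads in every library. Mesentery high fat library C, with 26.8% Acta2 and 20.4% Smtn, came closest to the epididymal libraries.

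**Figure D2:**
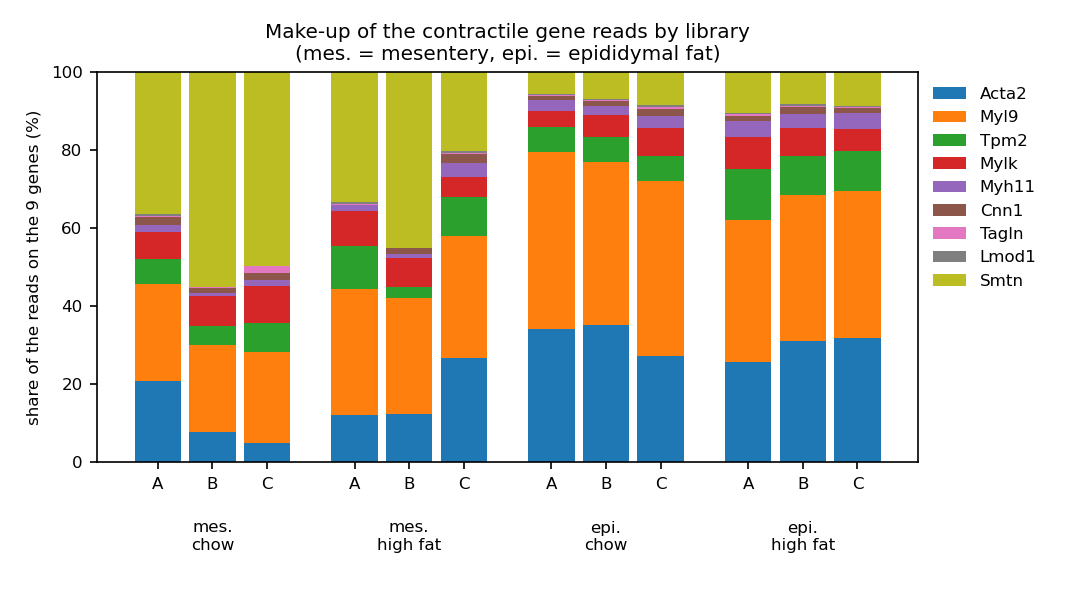
Stacked bars give the share (%) of the reads on the 9 genes that falls on each gene, for the 12 libraries in 4 groups of 3. Smtn fills 20.4% to 55.1% of each mesentery bar and 5.75% to 10.6% of each epididymal bar.

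On normal chow, 6 of the 9 genes were higher in epididymal fat than in mesentery and none was lower, at an adjusted p under 0.05 (limma, Benjamini-Hochberg over all tested genes). Of all tested genes, 12.8% passed, with 7.32% higher and 5.47% lower. The median log2 difference of the 9 genes was 3.03, beside -0.08 over all tested genes. The libraries of the tissues did not overlap for 7 genes, the 6 and Lmod1, all higher in epididymal fat; 16% of all tested genes were apart in that direction. Here and below, more cells that carry a transcript and more of it per cell cannot be told apart in bulk RNA.

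The largest difference was in Acta2, at 4.79 on the log2 scale (SE 0.69, adjusted p = 0.000614), with a group mean 21.7 times that of mesentery. Of the motor, Myh11 differed by 3.99 (SE 0.55, adjusted p = 0.000447) and Myl9 by 3.88 (SE 0.39, adjusted p = 3.63e-05), with means 15.7 and 15.4 times those of mesentery. Mylk, which acts on Myl9, differed by 2.46 (SE 0.28, adjusted p = 9.11e-05). Of the tropomyosin and calponin on the filament, Tpm2 differed by 3.03 (SE 0.57, adjusted p = 0.00371) and Cnn1 by 2.69 (SE 0.82, adjusted p = 0.0464). The call of Cnn1 was lost in 9 of 17 alternative analyses, including each of the 6 that left out 1 library, where its adjusted p ran from 0.0638 to 0.165.

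Lmod1 differed by 4.04 with an SE of 1.28 and an adjusted p of 0.0567, its mean being 10.1 times that of mesentery, and it passed in 5 of its 16 alternative analyses. Tagln differed by 1.57 (95% interval -0.32 to 3.46, adjusted p = 0.300), with mesentery library C at 39.4 inside the epididymal range. Smtn differed by 0.25 (95% interval -0.32 to 0.82, adjusted p = 0.626). All 9 differences were above 0 both within the libraries numbered 50 to 53 and within the 2 numbered 87; for Acta2 they were 4.56 and 5.24, for Myl9 3.97 and 3.70.

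On high fat diet, 5 of the 9 genes were higher in epididymal fat (limma, adjusted p under 0.05) and none was lower, beside 8.34% of all tested genes, 4.91% higher and 3.43% lower. The median of the 9 genes was 2.32, beside 0.06 over all tested genes. Myh11 differed by 2.65 (SE 0.55, adjusted p = 0.0104), Acta2 by 2.47 (SE 0.69, adjusted p = 0.0443) and Tpm2 by 2.27 (SE 0.57, adjusted p = 0.0276). Myl9 differed by 1.83 (SE 0.39, adjusted p = 0.0115) and Mylk by 1.56 (SE 0.28, adjusted p = 0.00389). Mean levels in epididymal fat were 5.18 times those of mesentery for Myh11, 5.02 times for Acta2, 3.74 times for Tpm2, 3.59 times for Myl9 and 2.91 times for Mylk.

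Of the other members, Cnn1 differed by 2.46 (adjusted p = 0.0868), Tagln by 2.37 (adjusted p = 0.127) and Lmod1 by 2.32 (adjusted p = 0.349), and none of these passed. Smtn differed by -0.20 (95% interval -0.77 to 0.37, adjusted p = 0.792). The libraries did not overlap for 6 genes, the 5 that passed and Tagln, beside 15.1% of all tested genes. Differences were above 0 for all 9 genes within the libraries numbered 50 to 53. Within the 2 numbered 88 they were above 0 for 8, all but Smtn. For all but Cnn1 they were lower within number 88 than within numbers 50 to 53. In the libraries numbered 88, Mylk read 393 in mesentery and 644 in epididymal fat, and Tpm2 476 and 1026. The median of the 9 genes was 2.73 with libraries numbered 50 to 53 alone, beside 2.32 with all libraries. Without mesentery library B or without epididymal library C, only Mylk passed, in fits that called 3.66% and 3.27% of all genes, and without epididymal library B 3 members passed. With edgeR 3 members passed, beside 4.59% of all genes. Without mesentery library A, Acta2 did not pass (adjusted p = 0.131).

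**Figure D3:**
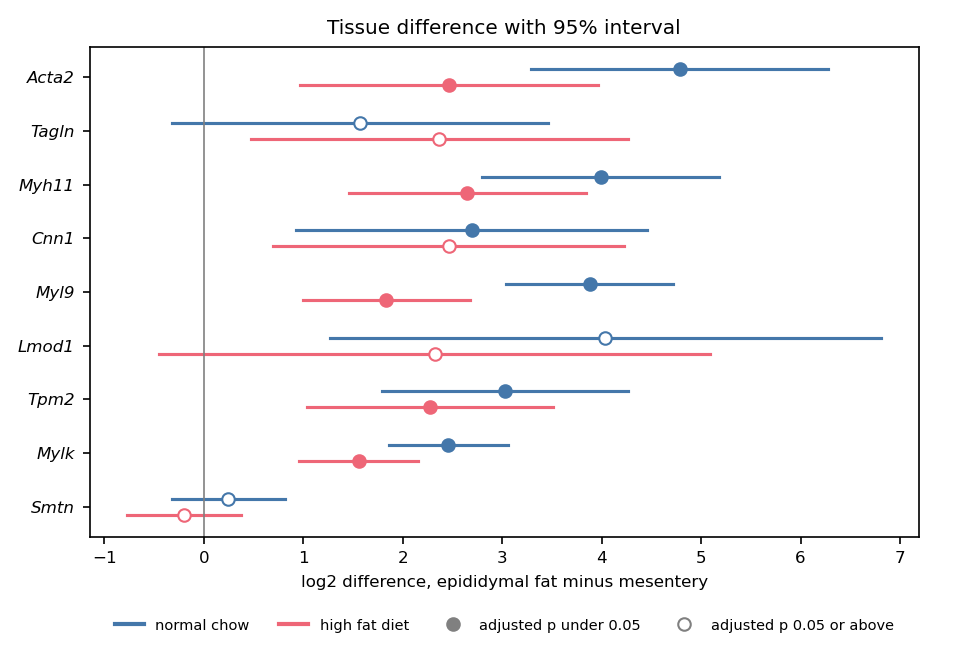
The horizontal axis gives the log2 difference, epididymal fat minus mesentery, for each of the 9 genes on normal chow (blue) and high fat diet (red); points are estimates, lines 95% intervals, and filled points have an adjusted p under 0.05. Filled points number 6 on chow and 5 on high fat diet, and both Smtn intervals include 0.

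In mesentery, none of the 9 genes differed between diets at an adjusted p under 0.05 in limma, and none had an unadjusted p under 0.05. Of all tested genes 0.0135% passed, 0.00899% higher and 0.0045% lower, and 6.15% had an unadjusted p under 0.05. Neither edgeR nor DESeq2 called a member, while they called 0.0045% and 0.847% of the genes to which they gave an adjusted p. Values for high fat diet minus chow were above 0 for 6 genes and below 0 for 3: Acta2 1.22 (95% interval -0.28 to 2.71), Myh11 0.89, Lmod1 0.87, Myl9 0.82 (95% interval -0.02 to 1.66), Tpm2 0.56, Mylk 0.25, Smtn -0.14, Cnn1 -0.73 and Tagln -1.07. The group means of Cnn1, 52.8 and 51.8 normalized counts, were nearly equal, and its value on the log2 scale rests on high fat library A at 4.68, without which it was 0.47. When 1 library was left out, Acta2 ran from 0.50 to 2.03 (without chow library C or A), Myh11 from 0.26 to 1.46 and Tpm2 from 0.12 to 1.42 (both without high fat library C or B). The median of the 9 values was 0.56, beside 0.00 over all tested genes. The diets overlapped for all 9 members in mesentery, while 4.47% of all tested genes were apart with higher and 5.14% with lower values on high fat diet. Library C on high fat diet was the highest of the 6 mesentery libraries in 6 genes, and high fat libraries A and C read 476 and 485 for Tpm2 where B read 79.0. Within the libraries numbered 50 to 53 the diet difference was below 0 in 4 genes, and between the 2 numbered 87 and 88 in 2.

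In epididymal fat, all 9 values for high fat diet minus chow were below 0, and again none passed at an adjusted p under 0.05 in limma. The share of all tested genes that passed was 0.549%, 0.418% higher and 0.13% lower. Unadjusted p-values were under 0.05 for 3 members, Myl9, Mylk and Smtn, and for 6.94% of all tested genes. Their median log2 difference was -0.65, beside 0.10 over all tested genes. Myl9 differed by -1.22 (SE 0.39, 95% interval -2.06 to -0.38, adjusted p = 0.281), and it was the only member whose diets did not overlap, as in 6.57% of all tested genes in that direction and 6.93% in the other. Its mean was 10954 ± 5534 normalized counts on chow and 4491 ± 1485 on high fat diet (SD, n = 3). DESeq2 on the recovered reads called Myl9 (log2 change -1.28, adjusted p = 0.0364) and no other member, giving no adjusted p for Lmod1 and Tagln, while edgeR called none; they called 4.03% and 0.13% of all genes with an adjusted p. Simulated data were made for tissue on chow and not for diet, with the same spread between libraries for every gene. On them a larger share of the DESeq2 calls than of the limma or edgeR calls was false, which need not hold for Myl9. There DESeq2 also found a larger share of the true changes, and limma and edgeR missed most of the smaller ones. Even these smaller ones were larger than the limma diet difference of any of the 9 genes in either tissue with all libraries. How often limma calls diet differences as small as those of the 9 genes was not tested.

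The other 8 values were Acta2 -1.10 (95% interval -2.60 to 0.39), Cnn1 -0.96, Lmod1 -0.85, Mylk -0.65 (95% interval -1.24 to -0.05), Smtn -0.59 (95% interval -1.16 to -0.02), Myh11 -0.45, Tagln -0.27 and Tpm2 -0.20. Library A on chow was the highest of the 6 epididymal libraries in 7 genes, and library A on high fat diet the lowest in 8. The 9 values were below 0 within the libraries numbered 50 to 53, and 8 were below 0 between those numbered 87 and 88, Tpm2 being 0.23. Values below 0 for this comparison were also seen in 11 of 12 pericyte markers, 13 of 14 pan-endothelial genes and 8 of 8 adipocyte markers, with medians of -0.94, -0.56 and -1.63. The diets did not overlap, with lower values on high fat diet, for 10 of the pericyte markers, 4 of the pan-endothelial genes and 6 of the adipocyte markers. Other lists went the other way. Values were above 0 in 10 of 11 fibroblast markers and 9 of 10 macrophage and leukocyte markers, with medians of 1.41 and 2.47. Of these, 8 fibroblast and 6 macrophage and leukocyte markers were apart with higher values. The part of these cell types in the values of the contractile genes was not tested.

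**Figure D4:**
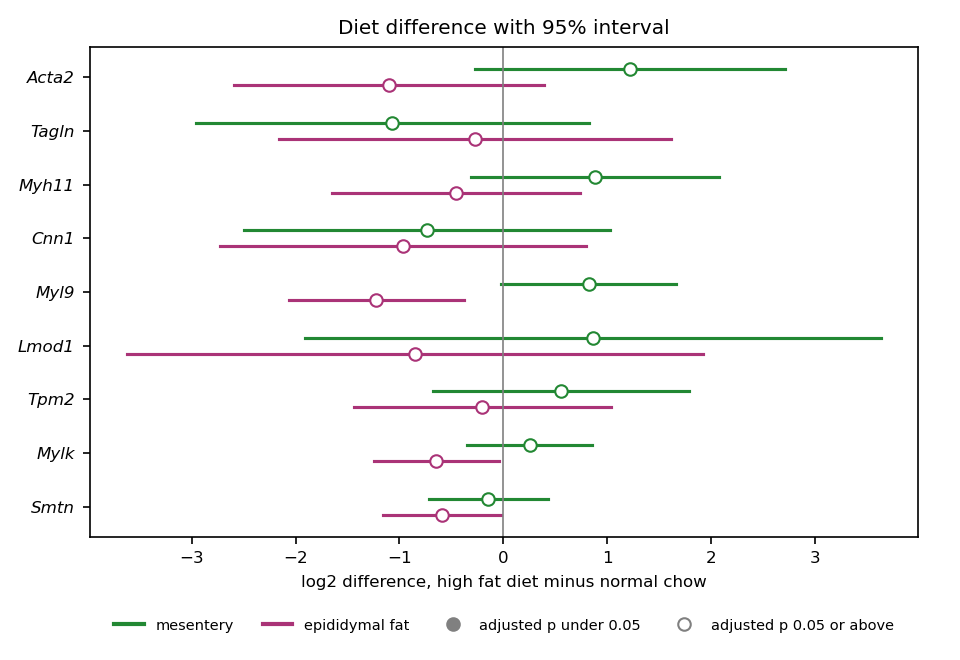
The horizontal axis gives the log2 difference, high fat diet minus normal chow, for each of the 9 genes in mesentery (green) and epididymal fat (purple); points are estimates, lines 95% intervals, and open points have an adjusted p of 0.05 or above. All points are open; the 9 epididymal points lie below 0, and 6 of the 9 mesentery points lie above it.

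The difference between these diet effects, epididymal fat minus mesentery, was below 0 for 8 of the 9 genes, and none passed at an adjusted p under 0.05 in limma, beside 0.0045% of all tested genes that did. Unadjusted p-values were under 0.05 for 3 genes: Acta2 at -2.32 (SE 0.98), Myl9 at -2.04 (SE 0.55, adjusted p = 0.479) and Mylk at -0.90 (SE 0.39). Of all tested genes, 4.71% had an unadjusted p under 0.05. DESeq2, which gave no adjusted p for Tagln, called Myl9 (-2.09, adjusted p = 0.0307) and edgeR no member, beside 0.873% and 0.0045% of all genes with an adjusted p. A smaller tissue difference on high fat diet than on chow, as for Acta2 (2.47 and 4.79), was therefore not called by limma.

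Other genes of smooth muscle contraction were examined as a list of 34. In epididymal fat on chow 12 were higher and 2 lower than in mesentery, with a median of 0.84, and on high fat diet 9 were higher and 2 lower, with a median of 0.82. Those with the largest values on chow were Actg2, the enteric smooth muscle actin (3.83, SE 1.14), Des, the intermediate filament protein desmin (3.64, SE 0.32), and Ppp1r14a, an inhibitor of myosin phosphatase (3.21, SE 0.46). On chow Des read 93.4, 78.0 and 90.1 normalized counts in mesentery and 1736, 1023 and 743 in epididymal fat. On high fat diet Des differed by 1.85 (SE 0.32) and Ppp1r14a by 1.96 (SE 0.46), while Actg2 at 2.19 did not pass (adjusted p = 0.307, limma). No gene of the list passed for diet in either tissue (limma; 4 in mesentery and 3 in epididymal fat had an unadjusted p under 0.05).

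Of 15 regulators of the contractile programme, 2 were higher and 2 lower in epididymal fat on chow (limma, adjusted p under 0.05), with a median of 0.10, and none passed on high fat diet, where 7 had an unadjusted p under 0.05. The Notch target Heyl differed by 4.06 (SE 0.80) and the receptor Notch3, which acts in mural cells, by 3.12 (SE 0.85), whereas Klf4, a repressor of smooth muscle genes, differed by -1.24 (SE 0.28) and Mrtfb, a myocardin-related coactivator, by -0.84 (SE 0.17). Srf, serum response factor itself, differed by 0.11 on chow (adjusted p = 0.923) and by 1.00 on high fat diet (adjusted p = 0.299). Mrtfa differed by 0.11 and -0.20, and Myocd, myocardin, by 0.87 and -0.28; none of these passed. Myocd was at 98.6 normalized counts in mesentery chow library C and at 0 in library B, and in each group its highest library was the one numbered 87 or 88.

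Of the non-muscle counterparts of the contractile proteins, 13 of 14 were tested. On chow 1 was higher in epididymal fat, Myh10, a non-muscle myosin heavy chain (1.85, SE 0.37). On high fat diet 4 were higher: the cytoplasmic actins Actb (2.15, SE 0.48) and Actg1 (1.09, SE 0.28), Myh10 (1.73, SE 0.37) and Tagln2 (0.98, SE 0.22). The medians were 0.38 and 0.58. In mesentery Actb averaged 38606 ± 10963 normalized counts on chow and 35947 ± 16478 on high fat diet, and 78755 ± 43490 and 156555 ± 55151 in epididymal fat (SD, n = 3), so its highest group was epididymal fat on high fat diet, where Acta2 was at 3631 ± 1441 against 8249 ± 4548 on chow. No gene of this list passed for diet (limma; 1 in mesentery and 2 in epididymal fat had an unadjusted p under 0.05).

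Markers of several other cell types also differed between the tissues, though not all in the same direction or on both diets. In mesentery the 9 contractile genes summed to between 2020 and 3916 normalized counts on chow and 2779 and 4861 on high fat diet, against 13655 and 37451 in epididymal fat on chow, and 7842 and 15366 on high fat diet. Of 12 pericyte markers, 8 were higher and 1 lower in epididymal fat on chow (median 3.35), and 6 were higher and 1 lower on high fat diet (median 1.98). Their sums ran, in the same order of groups, from 3758 to 4457, 3595 to 5770, 16378 to 20929 and 7299 to 11663, and no pericyte marker was at 0 in any library. Pdgfrb, the receptor that recruits mural cells, differed by 5.25 on chow (SE 0.42) and 3.31 on high fat diet (SE 0.42). Kcnj8, a potassium channel subunit of pericytes, was the only gene of all tested genes to pass for the difference of diet effects (-3.68, SE 0.35, adjusted p = 0.00218, limma). In mesentery Kcnj8 averaged 109 ± 32 normalized counts on chow and 357 ± 34 on high fat diet, and in epididymal fat 2778 ± 407 and 738 ± 198 (SD, n = 3). In epididymal fat it was the only pericyte marker to pass for diet, being lower on high fat diet (-1.94, SE 0.25, adjusted p = 0.00449, limma).

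Of 11 fibroblast markers, 9 were higher in epididymal fat on chow (median 2.19) and 11 on high fat diet (median 4.0), and 3 were higher on high fat diet within epididymal fat. Their sums ran from 7240 to 10908 in mesentery on chow, 5267 to 11256 on high fat diet, 21477 to 60982 in epididymal fat on chow and 54461 to 71358 on high fat diet; none was at 0 in any library. Of 10 macrophage and leukocyte markers, 1 was higher in epididymal fat on chow and 4 on high fat diet, with sums from 4785 to 75849 in epididymal fat on chow and 118028 to 290345 on high fat diet, against 1422 to 6659 and 3958 to 25301 in mesentery; 2, Adgre1 and Fcgr1, were at 0 in 1 mesentery library each. Of 8 adipocyte markers, 7 were higher in epididymal fat on chow and 1 lower on high fat diet, and within epididymal fat 3 were lower on high fat diet. In mesentery 1, Lep, the hormone leptin, was higher on high fat diet (3.71, SE 0.48, adjusted p = 0.021, limma). The adipocyte sums ran from 64264 to 87225 in epididymal fat on chow, 4450 to 15007 on high fat diet, and 4870 to 7162 and 5157 to 10330 in mesentery; Pck1 was at 0 in 1 mesentery library. Of 9 tested mesothelial markers, 5 were higher in epididymal fat on chow and 2 on high fat diet, with sums up to 2095; of the 10 listed, 5 were at 0 in at least 1 mesentery library, among them Msln, Lrrn4 and Wt1. Of 5 tested striated muscle genes, none passed in any comparison (limma; 1 had an unadjusted p under 0.05 for diet in each tissue and for tissue on chow, and none for tissue on high fat diet or for the difference of diet effects).

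Of 14 pan-endothelial genes, 2 were higher and 7 lower in epididymal fat on chow (median -0.92), and 1 was higher and 9 lower on high fat diet (median -1.05). The higher ones were Cldn5, by 4.25 on chow and 2.50 on high fat diet, and on chow Vwf, by 1.94. The sums of the 14 genes ran from 128764 to 187269 in mesentery on chow, 122363 to 142123 on high fat diet, 92653 to 111691 in epididymal fat on chow and 51631 to 97118 on high fat diet. None of the 14 was at 0 in any library. Of 10 arterial endothelial genes, 2 were higher and 2 lower in epididymal fat on chow, and 2 were higher on high fat diet. Of 12 factors of endothelial-to-mesenchymal transition, the passage of endothelial cells to a mesenchymal state in which Acta2 and Tagln are often used as markers, 4 were higher and 2 lower in epididymal fat on each diet. The higher ones were Twist1, Zeb2, Fn1 and Vim, and the lower ones Tgfb2 and Snai2. Each kept its sign within both number ranges, though sizes could differ. On chow Fn1 differed by 2.18 within the libraries numbered 50 to 53 and by 0.067 within those numbered 87. On high fat diet Twist1 differed by 5.06 within those numbered 50 to 53 and by 1.01 within those numbered 88. The part of other cell types in the levels of the contractile genes was not tested.

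**Figure D5:**
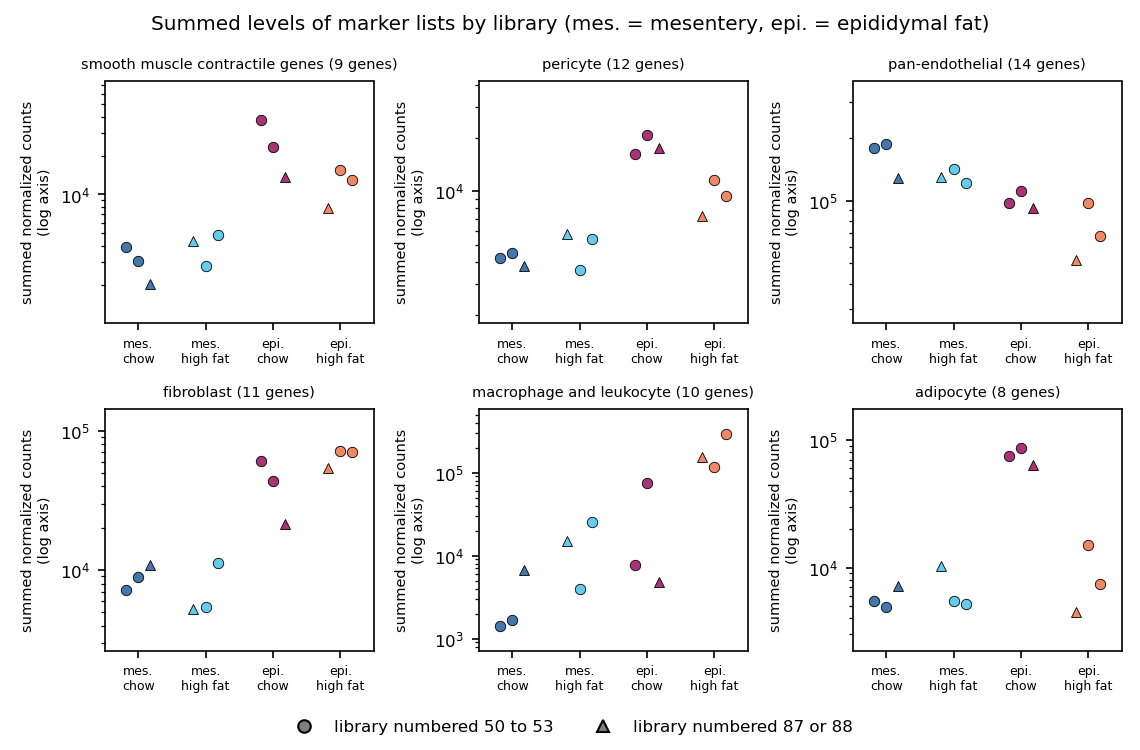
Each panel gives the summed normalized counts of a gene list on a log axis for the 4 groups of 3 libraries; points are libraries, round for numbers 50 to 53 and triangular for 87 or 88. The sums of the contractile genes and of the pericyte markers are higher in every epididymal library than in every mesentery library, and the pan-endothelial sum is lower. Single genes of a list can differ from its sum.

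A ranking by likeness covered 9838 non-member genes with a symbol and a mean of 100 or more, leaving out Gm, Rik and pseudogene names. Genes whose pattern was most like the contractile genes had the highest Pearson correlation of their log2 values with the mean z-score of the 9 genes. In the 12 libraries these were C1qtnf3 (0.989), Acsbg1 (0.986), Smim1 (0.983), Plcxd3 (0.982), Smim41 (0.980), Fxyd1 (0.973), Des (0.967) and Ppp1r14a (0.962). The 12 points share the split between tissues, which sets most of such a value. C1qtnf3 averaged 1.74 normalized counts in mesentery on chow and 4.47 with high fat feeding, and 1308 and 165 in epididymal fat. Against the mean z-score, of which each member is itself a part, Smtn had 0.32 over the 12 libraries, Tagln 0.72 and Cnn1 0.80, and the other 6 between 0.91 and 0.98. Within the 6 mesentery libraries the genes most like the 9 were Ppp1r18, Tuba1b, Fabp4 and Syt11 (0.977 to 0.987), and within the 6 epididymal libraries Laptm4b, Grina, Lin52 and Ggnbp2 (0.997 to 0.999). With only 6 points and so many genes ranked, values this high can arise without any link between the genes.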

How the data were processed

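RNA of sorted fluorescent cells was sequenced as paired-end reads in 12 libraries, and groups were taken from the sample titles. The deposited values are normalized counts per gene, a signal that the authors made by dividing reads by a size factor; the file headers name the libraries, and no column was left unused (0). The submitters' processing notes name STAR 2.7.9a, featureCounts from Subread, DESeq2 1.34.0 and build mm39, with no role stated; strand use and annotation are not given in the sources used here. All values (100%, within 0.01 of a read) were whole reads times a step shared by the library, and the lowest gene total was 51 reads. The floor of 3 reads covers counting error only, whereas the 95% intervals of differences come from the limma fit and rest on the spread between libraries.

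Differences were tested in limma 3.58.1 under R 4.3.3 (lmFit, then eBayes with its trend option) on log2(normalized count + 1) over all 12 libraries, with 1 mean per group. Genes with a mean of at least 10 entered, and p-values were adjusted by Benjamini-Hochberg over all of them, with a threshold of 0.05. Differences are between means of log2 values, and for low genes or uneven libraries they can be larger or smaller than the ratio of the group means. On whole reads recovered from the steps, edgeR 4.0.16 and DESeq2 1.42.0 were run as alternatives. The limma, edgeR and DESeq2 fits were tested on simulated data for tissue on chow only, with the same spread between libraries for every gene. There a larger share of the DESeq2 calls was false than of the limma or edgeR calls. DESeq2 also found a larger share of the true changes, and limma and edgeR missed most of the smaller ones. Other alternatives changed the pseudocount (0.5 or 10), the filter (none or a mean of 50), the scaling, the libraries or the covariates.

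The text names all 9 members, up to 6 genes that passed per list and comparison, a few mural and endothelial genes, and the genes ranked by likeness (8 over all libraries, 4 within each tissue). Members and lists were chosen with earlier results of these data known. Exon lengths and overlaps come from GENCODE M21 on GRCm38, and promoters from RefSeq GRCm38.p6.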

Additional observations from a re-analysis of the deposited data

How the results depend on the processing

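Counts of members called in mesentery for diet (0) and in epididymal fat against mesentery on chow (6, between 5 and 7) stayed within 1.5 times under every alternative run. For tissue on high fat diet, 5 members were called, 3 with edgeR and from 1 to 6 when 1 library was left out. For diet in epididymal fat and for the difference of diet effects, 0 were called, and 1 (Myl9) with DESeq2. Calls over all genes moved more: for diet in mesentery 3 with limma, 154 with DESeq2; for diet in epididymal fat 122 with limma, 29 with edgeR and 546 with DESeq2; for tissue on high fat diet 1854, 1021 and 2931; for the difference of diet effects 1, 1 and 133. Signs turned only in values that had not passed. For diet in mesentery, with libraries numbered 50 to 53 alone, Cnn1 was 0.26, Lmod1 -0.92 and Mylk -0.14; when 1 library was left out, Cnn1 ran from -1.66 to 0.47, Lmod1 from -0.21 to 2.38, Mylk from -0.0068 to 0.46 and Smtn from -0.35 to 0.024. Tpm2 for diet in epididymal fat ran from -0.58 to 0.15 when 1 library was left out, and Cnn1 for the difference of diet effects from -1.43 to 0.70. With libraries numbered 50 to 53 alone, Smtn for tissue on high fat diet was 0.11 and Lmod1 for the difference of diet effects 0.28. The cause was not tested. Same-lettered libraries carry the same number in the tissue comparisons and different numbers in the diet comparisons. Their deviations from the group means correlated at 0.027 to 0.583 for tissue on chow and at -0.149 to 0.146 for tissue on high fat diet. For diet the correlations were -0.149 to 0.119 in mesentery and -0.675 to 0.436 in epididymal fat. Of 6 libraries 3 correlated best with their own letter for diet in mesentery, 0 for diet in epididymal fat, 5 for tissue on chow and 2 for tissue on high fat diet. A replicate block used the letter for diet, which does not follow the number ranges, and the library number for the other comparisons. With it, 0 members were called for either diet comparison and 0 for the difference of diet effects. It called 6 for tissue on chow and 6 for tissue on high fat diet (Cnn1 gained, adjusted p = 0.0257, limma). Scaling to equal totals moved the median of all genes to 0.13 for diet in mesentery, -0.12 for tissue on high fat diet and -0.16 for the difference of diet effects, and turned no member. Lmod1 and Tagln rest on few reads in mesentery, with at most 24 and 28 in a library, and Tagln also in epididymal fat, with 28 to 58.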

Other observations

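Within the 6 epididymal libraries Smtn had a correlation of 0.988 with the mean z-score of the 9 genes, Cnn1 0.963 and Tagln 0.212, whereas within the 6 mesentery libraries Smtn had 0.071, Cnn1 0.026 and Tagln 0.139. Each of these is over 6 points from 2 diets, and the score includes the gene itself. Cnn1 was at 4.68 normalized counts (5 reads) in mesentery high fat library A, where Myl9 was at 1408, and at 108 in library C, where Myl9 was at 1517. Tpm2 was at 79.0 in high fat library B and at 485 in library C.

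Mesentery high fat library C held 26.8% of its contractile gene reads on Acta2, inside the epididymal range of 25.7% to 35.2%. Its macrophage and leukocyte markers summed to 25301 normalized counts, the highest of the 6 mesentery libraries, and its fibroblast markers to 11256, also the highest. Mesentery chow library C had a fibroblast sum nearly as high, 10908, with 4.81% of its contractile gene reads on Acta2. The pericyte sum of high fat library C was 5393, below the 5770 of high fat library A. A link between these values was not tested.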
